A study of Mus musculus with 30 samples.

Results

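The 39 genes described here are interferon-stimulated genes, the set that cells switch on when the type I interferon receptor is engaged. They were chosen from a list of symbols, and each was found once among the 78334 gene identifiers of the deposited table, of which 51486 could be given a symbol. By role they were 4 sensors of foreign nucleic acid (Ddx58, Ifih1, Dhx58 and Zbp1), 4 transcription factors (Irf1, Irf7, Irf9 and Stat2), the ubiquitin-like modifier Isg15 and its deconjugating enzyme Usp18, 4 IFIT genes, 5 OAS genes, 2 MX genes, 3 guanylate-binding proteins (GBP), 5 immunity-related GTPases (IRG) and 10 other effectors. Type I interferons bind the receptor pair IFNAR1 and IFNAR2, whose kinases JAK1 and TYK2 phosphorylate STAT2. Phosphorylated STAT2 acts with IRF9 at the interferon-stimulated response element (ISRE) in the promoters of these genes. The gamma-activated site (GAS) is the element known for the response to interferon gamma. Cells can make the interferon themselves after RNA sensors of the RIG-I family, or cGAS and STING for DNA, detect nucleic acid from outside. The products restrict viruses by degrading RNA, blocking translation or trapping particles, and many of the same genes are known to respond in vascular smooth muscle cells.

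RNA sequencing (paired 75 bp reads) was done on 30 libraries of cultured wild type mouse aortic smooth muscle cells, in which the long noncoding RNA CASC15 was depleted or overexpressed, in 2 sequencing runs analysed apart. In all groups the cells were starved in serum-free medium for 48 h and transfected for at least 24 h, with GapmeRs or plasmid DNA at 1 ug/mL. A GapmeR is an antisense oligonucleotide with a DNA core that directs cleavage of its target RNA. The FuGENE HD reagent is given for GapmeRs; no reagent is named for plasmids. Run 2 held 4 untreated groups: a control GapmeR (n = 2), a GapmeR against total CASC15 (n = 2), an overexpression control, called the plasmid control here (n = 3), and total CASC15 overexpression (n = 3). Run 3 held 5 groups of 4 libraries: knockdown control cells (their oligonucleotide is not named) left untreated, given angiotensin II (AngII, 10 ng/ml) or given platelet-derived growth factor BB (PDGF-BB, 10 to 30 ng/ml), and cells with knockdown of the long CASC15 form, untreated or given AngII, with treatments of 24 h. A group of long knockdown with PDGF-BB was not analysed here. Each library carries a batch label, P17 to P19 in run 2 and P16 to P19 in run 3, which crosses the groups. The labels do not say that libraries came from separate animals or cultures, so p-values measure the spread between these libraries, which may be technical.

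Library totals were 18007199 to 21881959 expected counts in run 2 and 15771490 to 30362047 in run 3. Read from 2610307P16Rik, the mouse transcript taken here for CASC15, the target rose with overexpression (log2 fold change 6.79) and fell in the long knockdown (log2 fold change -0.95 untreated, -0.79 under AngII). It was not lower in the libraries labelled total CASC15 knockdown (log2 fold change 0.36, edgeR adjusted p = 0.739), so directions there are those of the libraries so labelled. Of 8 smooth muscle markers, 5 in run 2 and 4 in run 3 had a median of at least 1 CPM (counts scaled to the library total). Acta2 had a median of 197 CPM in run 3, while the contractile markers Cnn1 and Myh11 were near 0 there (medians 0 and 0.109 CPM). Tagln and Lmod1 had medians of 0.872 and 0.643 CPM there. Of 6 fibroblast-type markers, 5 had a median of at least 1 CPM in each run, with Col14a1 at 147 and 167 CPM. Dpt was under it in both (0.281 and 0.156 CPM). Of 11 leukocyte markers 2 had no count in run 2 and 4 in run 3. The pan-leukocyte gene Ptprc reached at most 0.0998 CPM in run 2 and 0 in run 3. Cd14 was the 1 leukocyte marker with a median of at least 1 CPM (10.9 and 11.3 CPM), and Cd68 reached 15.9 and Csf1r 4.52 CPM in run 2. Of 5 markers of plasmacytoid dendritic cells, Siglech had no count in either run, and Ccr9 and Pacsin1 reached at most 0.499 CPM. Spib reached 7.84 CPM in run 2 and 1.43 in run 3, and Tcf4, a transcription factor that other cell types make as well, had medians of 153 and 110.2 CPM.

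The promoters of Isg15, Ifit1, Ifit3, Ifit3b, Oas1a and Bst2, genes whose values are given below, are shown with the motifs of the interferon response. Rsad2 is a further example with the ISRE core and Irf1 one with the GAS motif. They are from RefSeq on build GRCm38.p6 and run 5′ to 3′ on the gene's strand, ending at the base before the annotated start, over 150 bases (200 for Ifit3 and Ifit3b). Capitals mark matches to the ISRE core GAAANNGAA or its reverse complement TTCNNTTTC, and in Irf1 the GAS motif TTCNNNGAA, which is its own reverse complement; matches may overlap.
Isg15: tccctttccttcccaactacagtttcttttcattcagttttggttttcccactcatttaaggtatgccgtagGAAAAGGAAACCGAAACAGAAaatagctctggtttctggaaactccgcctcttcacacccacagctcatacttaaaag
Ifit1: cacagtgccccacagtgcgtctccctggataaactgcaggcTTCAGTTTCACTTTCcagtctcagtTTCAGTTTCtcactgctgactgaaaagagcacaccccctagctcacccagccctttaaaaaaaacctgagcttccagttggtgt
Ifit3: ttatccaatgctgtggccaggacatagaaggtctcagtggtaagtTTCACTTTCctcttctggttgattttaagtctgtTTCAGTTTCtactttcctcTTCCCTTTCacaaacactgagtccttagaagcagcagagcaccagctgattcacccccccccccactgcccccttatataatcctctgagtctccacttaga
Ifit3b: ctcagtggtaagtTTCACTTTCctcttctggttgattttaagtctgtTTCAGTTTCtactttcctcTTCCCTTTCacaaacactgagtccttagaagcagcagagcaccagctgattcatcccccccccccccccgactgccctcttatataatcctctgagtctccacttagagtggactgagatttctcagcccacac
Oas1a: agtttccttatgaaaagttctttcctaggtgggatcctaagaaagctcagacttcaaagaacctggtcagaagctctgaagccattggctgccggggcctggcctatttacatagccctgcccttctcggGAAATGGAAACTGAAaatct
Bst2: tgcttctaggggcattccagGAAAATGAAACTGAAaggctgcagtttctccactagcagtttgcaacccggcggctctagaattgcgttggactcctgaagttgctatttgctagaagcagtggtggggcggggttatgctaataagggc
Rsad2: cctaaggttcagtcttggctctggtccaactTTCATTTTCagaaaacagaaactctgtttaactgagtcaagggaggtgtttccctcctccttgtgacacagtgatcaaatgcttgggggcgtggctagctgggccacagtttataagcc
Irf1: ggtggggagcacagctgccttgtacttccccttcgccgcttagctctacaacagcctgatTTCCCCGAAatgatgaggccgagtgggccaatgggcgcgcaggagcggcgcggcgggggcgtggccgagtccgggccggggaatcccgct

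The stretches lie upstream of the gene: Isg15 (ENSMUSG00000035692.8) at chr4:156200819-156200968 on the minus strand, Ifit1 (ENSMUSG00000034459.9) at chr19:34640739-34640888 on the plus strand, Ifit3 (ENSMUSG00000074896.4) at chr19:34583329-34583528 on the plus strand and Ifit3b (ENSMUSG00000062488.10) at chr19:34607757-34607956 on the plus strand. The other 4 are Oas1a (ENSMUSG00000052776.11) at chr5:120907526-120907675 on the minus strand, Bst2 (ENSMUSG00000046718.9) at chr8:71537473-71537622 on the minus strand, Rsad2 (ENSMUSG00000020641.17) at chr12:26456453-26456602 on the minus strand and Irf1 (ENSMUSG00000018899.18) at chr11:53769864-53770013 on the plus strand. Positions are counted from the annotated start, with -1 the base before it, and give the first base of a match. Ifit1 had ISRE core matches at -109, -103 and -84. Isg15 had them at -78, -72 and -66, as a run of overlapping repeats. Bst2 had them at -130 and -124 and Oas1a, closest to the start among those printed, at -20 and -14. The neighbouring paralogs Ifit3 and Ifit3b each held 3 matches in the same order, at -155, -121 and -102 and at -187, -153 and -134. Irf1, a factor also induced by interferon gamma, had a GAS match at -90 and no ISRE core match in the window.

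The table of windows from 250 bases before to 50 bases after the start held 30 of the 39 genes; Iigp1, Zbp1, Mx1, Mx2, Dhx58, Rtp4, Usp18, Oas2 and Parp14 had none. The ISRE core was found, on either strand, in 20 of these 30 genes (66.7%), against 9.76% of all 27025 genes with a window. By window, it was in 21 of 35 windows of the genes described and in 8.56% of all 32851 windows. The GAS motif was found in 9 of the 30 genes and in 9.55% of all genes. A match describes the letters of the window and does not show binding.

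**Figure D1:**
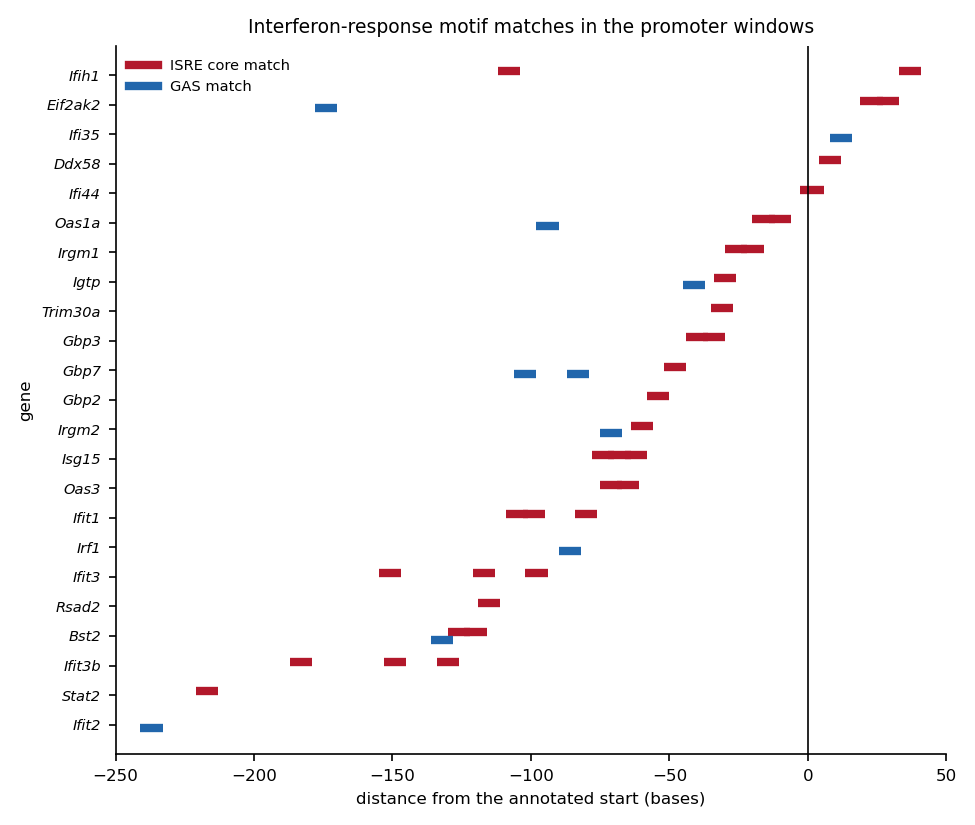
Matches to the ISRE core (red) and the GAS motif (blue) in the promoter windows, by distance from the annotated start in bases; genes with neither match are left out. Of the 23 genes shown, 20 have an ISRE core match, and Irf1, Ifi35 and Ifit2 have a GAS match alone.

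Levels between genes were compared as CPM per kilobase of annotated exon (mean ± SD over libraries), with exon lengths from GENCODE M21. In untreated control cells of run 3 (n = 4) the most abundant transcripts were those of Irgm1, an immunity-related GTPase (32.9 ± 2.94), Bst2, the tetherin that holds budding particles at the membrane (27.7 ± 5.41), and Ifit2, which binds viral RNA and blocks its translation (20.5 ± 3.93). The spread of Bst2 overlaps that of Irgm1 above it and that of Ifit2 below it. Ifi35 (15.9 ± 1.33), Ifit3 (13.9 ± 2.22), Eif2ak2 (13.5 ± 0.523) and Irf1 (13.3 ± 0.884) followed, and the last 3 did not differ beyond their spread. The spread of Ifi35 overlaps those of Ifit2 and Ifit3. At the low end stood Rsad2 (0.0277 ± 0.0238), Oas3 (0.0603 ± 0.0259) and Oasl1 (0.0651 ± 0.0232), each under 1 CPM in every library. In the plasmid control of run 2 (n = 3) the order was led by Ifit3, partner of IFIT1 in RNA binding, at 1415 ± 487, then Bst2 at 574 ± 186, Ifit3b at 332 ± 125, Ifit1 at 302 ± 128 and Isg15 at 299 ± 127. Of these, Bst2, Ifit3b, Ifit1 and Isg15 did not differ beyond their spread.

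The controls of the 2 runs did not start at the same level. Oas2, a synthetase of the 2-5A that activates RNase L, was at 0 and 0.148 CPM in the control GapmeR libraries of run 2 and at 8.19, 6.44, 6.23 and 3.01 CPM in the untreated controls of run 3. Isg15 was at 0.846 and 1.09 CPM and at 3.15, 4.06, 4.54 and 2.98 CPM in the same groups. Run and control cannot be told apart here, so each comparison below stays within its run. Expected counts split reads between near-identical genes, so Ifit3 and Ifit3b, Oas1a and its neighbour Oas1g, and the GBP and IRG families are uncertain as single genes.

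The plasmid control was set against the control GapmeR in run 2 to read how these genes differed between the 2 control transfections. All 39 genes were tested, and 39 were higher in the plasmid control. With edgeR's quasi-likelihood test at an adjusted p under 0.05, 37 of 39 rose, where 1.15% of all 15350 genes tested did. The plasmid libraries lay above the GapmeR libraries without overlap in 39 of 39 genes, against 14.9% of all genes. Of the 39, 10 had too few counts with GapmeRs, control or labelled knockdown, to pass the low-count filter without the plasmid groups. They are named below with the labelled knockdown, and their higher values here were largely set in advance by that filter. The counts and the median here include them. The median log2 fold change was 5.85, or 57.8-fold, beside 0.0042 over all genes, and the median was also 5.85 with the 4 genes at 0 in the GapmeR libraries set at their lower bound. In bulk RNA a change in the number of responding cells and in the RNA per cell cannot be told apart.

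Among the sensors, Ddx58 (RIG-I) rose least, from 35.8 and 45.9 CPM with the control GapmeR to 186, 345 and 335 CPM with the plasmid control (log2 fold change 2.82 ± 0.29 SE, edgeR adjusted p = 0.000882). Ifih1 (MDA5) and Dhx58 (LGP2) rose by 4.17 ± 0.30 and 6.29 ± 0.40 on the log2 scale. Zbp1, a sensor of Z-form nucleic acid that can trigger cell death, had no count in either GapmeR library and 11.3, 41.2 and 77.2 CPM in the plasmid libraries. Against a floor of 3 counts per library, Zbp1 was at least 307-fold higher.

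The transcription factors differed in size of response. Irf7, which amplifies interferon production and is itself induced, was at 3.65 and 3.70 CPM in the control GapmeR libraries and 198, 484 and 474 CPM in the plasmid control libraries. Its log2 fold change was 6.71 ± 0.47 (SE, edgeR adjusted p = 0.000138). Stat2 was at 26.5 and 37.5 CPM in the control GapmeR libraries and 309, 560.3 and 519 CPM in the plasmid control libraries, and Irf9, its DNA-binding partner, at 31.8 and 41.7 CPM in the control GapmeR libraries and 215, 222 and 201 CPM in the plasmid control libraries. Their log2 fold changes were 3.85 ± 0.28 and 2.53 ± 0.16. Irf1 changed least of the 39 genes, from 40.3 and 37.2 CPM to 64.6, 83.3 and 93.1 CPM (1.05 ± 0.17, adjusted p = 0.0137). No library of any of these 4 factors overlapped between the groups.

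Isg15, a modifier attached to newly made proteins, was at 0.846 and 1.09 CPM in the control GapmeR libraries and 129, 228 and 321 CPM in the plasmid control libraries. Usp18, which removes it and also dampens the receptor, was at 0.267 and 0.247 CPM in the control GapmeR libraries and 94.8, 199 and 263 CPM in the plasmid control libraries. The log2 fold changes were 7.87 ± 0.49 and 9.46 ± 0.67 (edgeR adjusted p = 9.45e-05 and 0.000158). In each of these genes the first plasmid library, of batch P17, was the lowest of the 3 and still lay far above both GapmeR libraries.

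Of the IFIT genes, Ifit1 was at 0.624 and 0.543 CPM in the control GapmeR libraries and 439, 860.4 and 1111 CPM in the plasmid control libraries (log2 fold change 10.41 ± 0.61, edgeR adjusted p = 7.12e-05). Ifit3 reached the highest level of the group, 1488, 2926 and 2993 CPM, from 31.5 and 53.9 CPM (5.85 ± 0.43), and Ifit3b rose by 5.33 ± 0.43. Ifit2 started higher, at 67.1 and 81.9 CPM, and stood at 193, 399.8 and 532 CPM with the plasmid control. Its log2 fold change of 2.33 ± 0.49 did not pass the test (adjusted p = 0.0787) although the groups did not overlap.

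The 5 OAS genes all rose from low levels. Oas2 had 3 counts over both GapmeR libraries and 67.0, 307 and 208 CPM in the plasmid libraries, a ratio of means of 2618 (95% counting interval 901 to 12768). Oas1a was at 0 and 0.198 CPM in the control GapmeR libraries and 85.5, 221 and 299.6 CPM in the plasmid control libraries (log2 fold change 10.98 ± 0.90, edgeR adjusted p = 0.000346). Oas3, which had no count with the GapmeR, was at 8.15, 57.9 and 78.1 CPM, at least 341-fold higher. Oasl2 rose by 7.40 ± 0.37 and Oasl1 by 5.40 ± 0.84 on the log2 scale. The dynamin-like GTPases Mx1 and Mx2, which block viral ribonucleoproteins, rose by 6.56 ± 0.79 and 5.64 ± 0.45.

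The GTPases that attack the membranes of intracellular pathogens rose as well. Gbp2 was at 5.26 and 5.68 CPM in the control GapmeR libraries and 37.8, 78.6 and 123 CPM in the plasmid control libraries (log2 fold change 3.86 ± 0.51, edgeR adjusted p = 0.00577), and Gbp3 and Gbp7 rose by 9.30 ± 0.80 and 5.14 ± 0.57. Irgm1, a regulator of the other immunity-related GTPases, was at 71.9 and 86.4 CPM in the control GapmeR libraries and 501, 803 and 833 CPM in the plasmid control libraries (3.17 ± 0.28). Irgm2, Ifi47, Igtp and Iigp1 rose by 5.12, 4.48, 6.09 and 9.14. All 8 GTPases of these families passed the test.

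Among the other effectors, Bst2 was at 9.09 and 9.04 CPM in the control GapmeR libraries and 349.7, 519 and 686 CPM in the plasmid control libraries (log2 fold change 5.84 ± 0.30, edgeR adjusted p = 3.18e-05). Trim30a, a ubiquitin ligase family member, had no count with the GapmeR and 20.9, 87.4 and 128 CPM with the plasmid, at least 559-fold more. Ifi44 and the nucleotide kinase Cmpk2 had 2 and 1 counts over both GapmeR libraries, with ratios of means of 3524 (95% counting interval 977 to 29139.5) and 3180.1 (95% counting interval 514 to 113265). Rsad2 (viperin), which makes a chain-terminating nucleotide, was at 0 with the GapmeR and at 6.17, 40.8 and 78.2 CPM with the plasmid, at least 296-fold higher, but did not pass the test (edgeR adjusted p = 0.0899). The RNA-activated kinase Eif2ak2 (PKR) and Ifi35 rose by 2.44 ± 0.22 and 2.89 ± 0.24, and Parp14, Xaf1 and Rtp4 by 4.88, 4.28 and 8.36. The wide intervals follow from the few counts under the GapmeR.

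Within batch P17 all 39 genes were higher in the plasmid library (median log2 ratio 5.15), and within P18 all 39 were (5.98); P19 has no GapmeR library. With batch as a replicate block 34 of 39 were called higher, beside 2.36% of all genes; Zbp1, Oas3 and Trim30a lost their calls (adjusted p from 0.0512 to 0.131). With the compared groups alone in the fit Zbp1, Irf1, Oas3, Oasl1 and Trim30a lost theirs (adjusted p from 0.0698 to 0.143). Without the first plasmid library 39 genes were called higher, and without either GapmeR library, which leaves 1, 28 and 29 were. None of the 4 leukocyte markers tested passed, and the 11 markers summed to 8.69 to 10.4 CPM with the GapmeR and 11.4 to 12.9 CPM with the plasmid. The 6 fibroblast-type markers summed to 189 to 251 CPM with the GapmeR and 202 to 485 CPM with the plasmid, and none was called. Ly6a was higher (4.04 ± 1.02, edgeR adjusted p = 0.186) and Pdgfra (-0.78 ± 0.59) and Pi16 (-0.80 ± 0.48) lower, each without overlap. The part of these markers in the result was not tested. Irf1 lost its call without control GapmeR library 1 or 2 or plasmid control library 2 (adjusted p up to 0.226), and Gbp2 without control GapmeR library 1 or 2 (up to 0.138). Zbp1, Oas3, Oasl1, Mx1, Cmpk2 and Trim30a lost theirs without either GapmeR library (adjusted p up to 0.193 for Oasl1 and 0.142 for Zbp1), and Gbp7 without the second. Oas3 also lost its call without the second plasmid library and without batch P19. The 2 groups differ in transfected nucleic acid and possibly in reagent, which cannot be told apart.

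The genes around them in the pathway were tested in the same fit. The receptor chains Ifnar1 (108 and 93.4 against 92.9, 91.0 and 88.3 CPM) and Ifnar2 (58.0 and 49.3 against 58.6, 56.2 and 63.4 CPM) had log2 fold changes of -0.15 ± 0.11 and 0.15 ± 0.12, neither called. Ifnb1, the interferon beta gene, was the only 1 of 16 interferon genes that could be tested. It was at 0 and 0 CPM with the GapmeR and 0, 0.275 and 0.283 CPM with the plasmid, and was not called. Its counts in these libraries were at most 5, under the filter's minimum of 10, so the test could say little about it. Of 20 tested genes of nucleic acid sensing 6 rose, where 1.15% of all genes did, among them Ifi204 (4.53 ± 0.58), the endosomal RNA sensor Tlr3 (3.16 ± 0.55), Samhd1 (2.50 ± 0.35) and the RNA editor Adar (2.25 ± 0.17). The DNA sensor Cgas (0.579 and 0.445 against 1.04, 0.990 and 0.964 CPM), Sting1 (2.36 and 1.68 against 2.39, 1.98 and 9.13 CPM) and Irf3 (27.5 and 36.4 against 28.5, 34.8 and 29.0 CPM) were not called. Of 62 tested further interferon-stimulated genes 49 rose and 0 fell, with a median log2 fold change of 3.52.

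**Figure D2:**
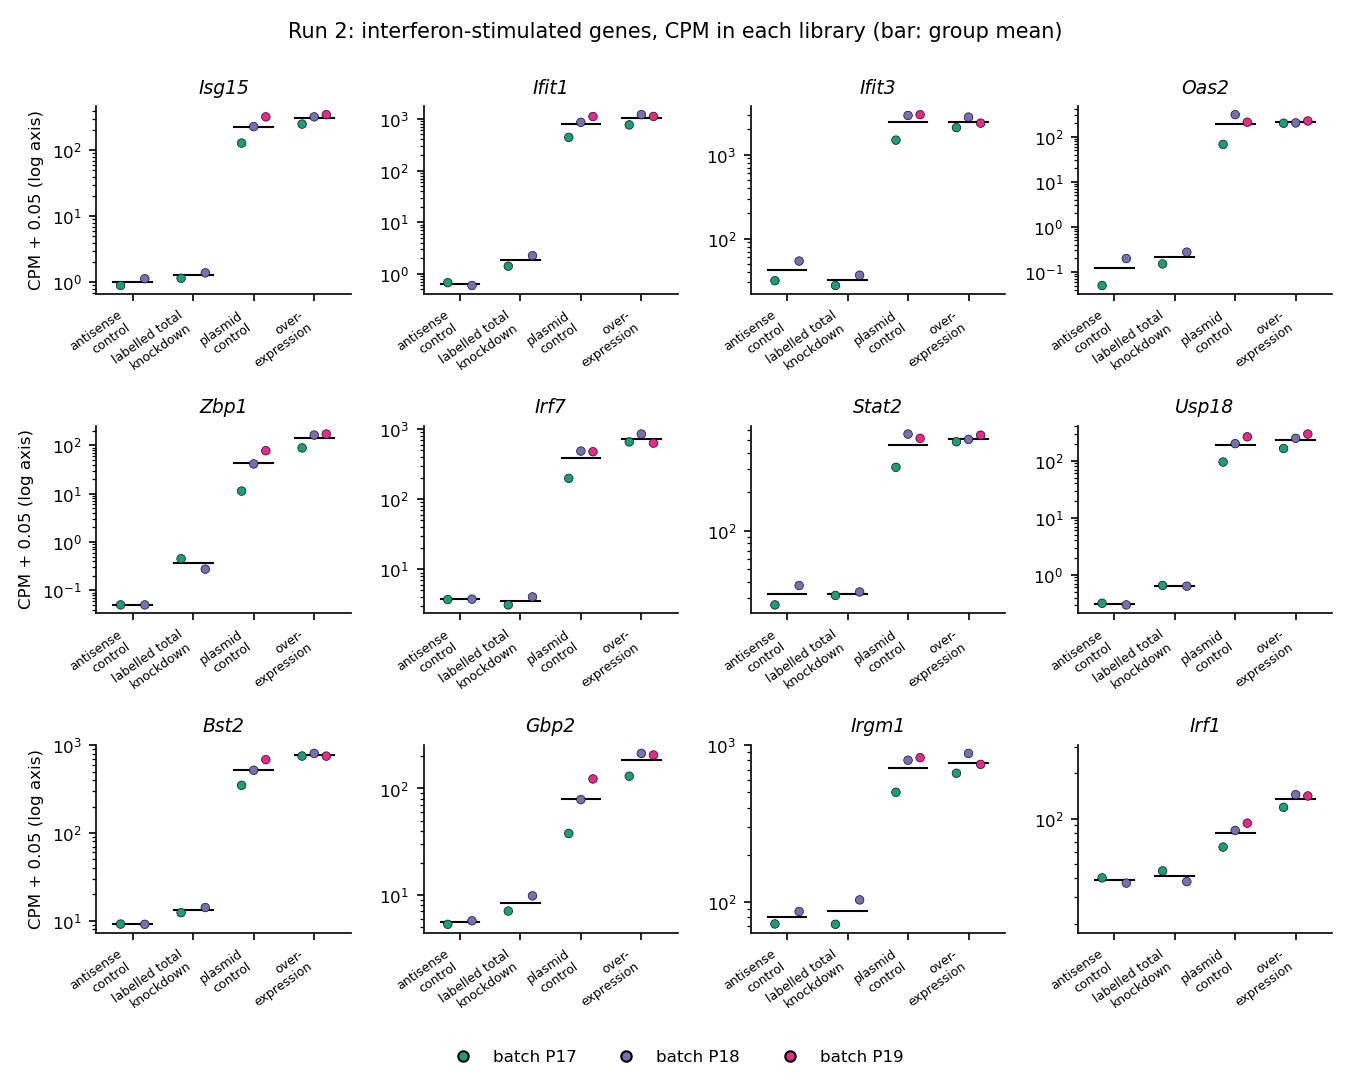
CPM (plus 0.05, log axis) of 12 genes in each library of run 2, by group on the x axis, with points coloured by batch and a bar at the group mean. For Isg15 the 3 plasmid control libraries sit between 129 and 321 CPM, above 1.09 CPM, the higher of the control GapmeR libraries.

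Total CASC15 overexpression was compared with the plasmid control, whose 3 libraries are also those of the comparison above. Of the 39 genes, 37 had a log2 fold change above 0 and 1 passed the test, where 1.09% of all genes rose. The gene called was Irf1, at 64.6, 83.3 and 93.1 CPM in the plasmid control and 119, 144 and 141 CPM with overexpression (log2 fold change 0.74 ± 0.15, edgeR adjusted p = 0.0393), with no overlap between the groups. Irf1 lost the call when any of the 5 libraries other than the third plasmid library was left out, with an adjusted p of up to 0.158. The median over the genes was 0.49, beside 0.00026 over all genes. The groups did not overlap, with overexpression higher, in 13 of 39 genes, against 9.61% of all genes.

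With batch as a replicate block 12 of 39 genes rose, against 9.40% of all genes. These were Irf1, Isg15, Usp18, Mx2, Gbp2, Gbp3, Ifi47, Bst2, Ifi35, Parp14, Rtp4 and Xaf1. Gbp2 was at 37.8, 78.6 and 123 CPM in the plasmid control and 130.4, 213 and 206 CPM with overexpression, in the order of batches P17, P18 and P19 in both (log2 fold change 1.20 ± 0.37, blocked edgeR adjusted p = 0.0113, 0.175 unblocked). Bst2 was at 349.7, 519 and 686 CPM and, with overexpression, at 754, 807 and 753 CPM in the same order (blocked adjusted p = 0.0313). Within batches, 39, 35 and 34 of 39 genes were higher in P17, P18 and P19, with median log2 ratios of 1.04, 0.57 and 0.16. The ratio was widest in P17, whose plasmid library was the lowest of its group. Ifit3 (-0.03 ± 0.29) and Irf9 (-0.02 ± 0.13) were the genes with a log2 fold change below 0, and neither passed. Of 4 leukocyte markers tested Cd14 rose (0.81 ± 0.14), and the 11 summed to 18.1 to 23.5 CPM against 11.4 to 12.9 CPM. The fibroblast-type markers summed to 519 to 881 CPM against 202 to 485 CPM, and none of 6 tested was called without the block. Ly6a had means of 485 CPM with overexpression and 149 CPM in the plasmid control (log2 fold change 1.70 ± 0.76, edgeR adjusted p = 0.344). Pdgfra was also higher (means of 35.3 and 20.8 CPM), while Col14a1, Lum, Pi16 and Dpt had log2 fold changes below 0. With the block Csf1r (log2 fold change 3.01, blocked adjusted p = 0.0418) and Pdgfra (log2 fold change 0.75, blocked adjusted p = 0.00127) rose, and Lum (log2 fold change -1.35, blocked adjusted p = 0.0236) and Pi16 (log2 fold change -0.82, blocked adjusted p = 0.0165) fell. Of the plasmacytoid dendritic cell markers Spib rose, at 0.135 to 0.454 CPM in the plasmid control and 2.23 to 7.84 CPM with overexpression (log2 fold change 4.08 ± 0.57, edgeR adjusted p = 0.00909). The part of these markers in the result was not tested.

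Of 9 receptors and kinases of the pathway 4 rose with overexpression, where 1.09% of all genes did. Ifnar2, the high-affinity chain of the type I receptor, was at 58.6, 56.2 and 63.4 CPM in the plasmid control and 137, 144 and 124 CPM with overexpression (log2 fold change 1.18 ± 0.11, edgeR adjusted p = 0.00106). Ifnar1 was at 92.9, 91.0 and 88.3 CPM and at 137, 131 and 117 CPM (0.50 ± 0.10, adjusted p = 0.0467). The other called genes were Ifngr2 of the interferon gamma receptor (0.67 ± 0.10) and Il10rb, a shared chain of other receptors (0.65 ± 0.13). Ifnb1 had 0.449, 0.778 and 1.25 CPM with overexpression, above 0, 0.275 and 0.283 CPM in the plasmid control without overlap, and was not called (adjusted p = 0.326). Its counts in the plasmid control were at most 5, so it passed the filter through the overexpression libraries.

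In the libraries labelled total CASC15 knockdown (n = 2), set against the same control GapmeR libraries (n = 2), no gene of the 39 passed the test, where 2.07% of all genes did. Of the 39, 10 entered the fit through the plasmid groups alone and had too few counts in these 4 libraries to pass the filter, so the test could say little about them: Cmpk2, Ifi44, Oas1a, Oas2, Oas3, Oasl1, Rsad2, Rtp4, Trim30a and Zbp1. Rsad2 had no count in any of the 4, and Oas3 had 2 counts in all. By edgeR, 4 of 39 had an unadjusted p under 0.05, beside 12.9% of all genes. DESeq2 called 4 of the 39 higher and 719 of all genes in either direction. With batch as a replicate block 3 rose, against 8.76% of all genes: Ifit1, Dhx58 and Mx2. Ifit1 was at 0.624 and 0.543 CPM in the control and 1.35 and 2.19 CPM in the labelled libraries (blocked adjusted p = 0.0361), and Dhx58 at 1.38 and 1.78 CPM and at 4.16 and 5.24 CPM (blocked adjusted p = 0.0447). Mx2 was at 1.43 and 1.93 CPM in the control and at 3.71 and 5.64 CPM in the labelled libraries (blocked adjusted p = 0.00708). The groups did not overlap, with the labelled libraries higher, in 17 of 39 genes, but in 26.4% of all genes as well; 4 of the 17 were among those 10. The median log2 fold change was 0.35, beside 0.01 over all genes, and it was 0.19 without those 10. Isg15 was at 0.846 and 1.09 CPM in the control and at 1.10 and 1.34 CPM in the labelled libraries.

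Markers of other cell types moved in these libraries. The 11 leukocyte markers summed to 28.3 to 33.7 CPM against 8.69 to 10.4 CPM in the control, and 2 of 4 tested rose, Cd68 (log2 fold change 5.19 ± 0.59, edgeR adjusted p = 0.00576) and Csf1r (4.30 ± 0.77, adjusted p = 0.0262). Cd52 and Tyrobp had no count in run 2. The fibroblast-type markers summed to 157 to 193 CPM against 189 to 251 CPM, and none of 6 tested was called without the block. With the block Pdgfra (log2 fold change -1.01, blocked adjusted p = 0.000774), Lum (log2 fold change -1.72, blocked adjusted p = 0.00875) and Col14a1 (log2 fold change -0.70, blocked adjusted p = 0.0111) fell, each without overlap. Their part in the values above was not tested.

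Knockdown of the long CASC15 form in run 3 was compared with control cells, without treatment and under AngII, to read the genes at their resting level. Of the 39 genes 35 had enough counts to be tested; Oas3, Oasl1, Rsad2 and Trim30a did not. All 35 had a log2 fold change below 0 in untreated cells, and 28 fell at an adjusted p under 0.05 (edgeR), where 12.8% of all 15103 genes did. The groups of 4 did not overlap in 26 of 35, against 12.2% of all genes. The median log2 fold change was -1.08, a ratio of 0.474, beside 0.02 over all genes. Under AngII 34 of 35 were below 0 and 23 fell, where 13.3% of all genes did. There 19 did not overlap, against 12.4% of all genes, and the median was -0.91. The 2 comparisons share no library, and all 23 genes that fell under AngII also fell in untreated cells. The 5 called in untreated cells and not under AngII were Dhx58, Irf7, Mx2, Igtp and Iigp1, and the interaction of knockdown and AngII did not pass for any of them (edgeR, unadjusted p of at least 0.0854). Cmpk2, Ifi44 and Zbp1 had too few counts in the 8 untreated libraries to pass the filter on those alone, and of these Zbp1 was called. In the libraries given AngII the same held for Cmpk2 and Zbp1, and Zbp1 was called there as well.

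Oas2 and Oas1a had the widest falls among the genes called in untreated cells. Oas2 was at 8.19, 6.44, 6.23 and 3.01 CPM in control cells and 0.140, 0.223, 0.163 and 0.0531 CPM with the knockdown in untreated cells, every knockdown library below every control library. Its log2 fold change was -5.31 ± 0.83 (SE, edgeR adjusted p = 0.00013). Under AngII it was at 9.11, 6.77, 3.68 and 2.10 CPM in control cells and 0.257, 0, 0.599 and 0.598 CPM with the knockdown (-3.85 ± 0.72, adjusted p = 0.000701). Oas1a was at 4.62, 3.57, 3.49 and 2.57 CPM in control cells and 0.187, 0.0556, 0.326 and 0.478 CPM with the knockdown without treatment and had log2 fold changes of -3.74 ± 0.37 (adjusted p = 3.82e-07) and, under AngII, -3.32 ± 0.37. Neither gene overlapped between groups in either condition, and both were under 1 CPM in every knockdown library. Oasl2, an OAS-like gene, fell, with log2 fold changes of -1.51 ± 0.32 and -1.41 ± 0.32.

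Isg15 was at 3.15, 4.06, 4.54 and 2.98 CPM in control cells and 1.45, 0.612, 0.489 and 1.27 CPM with the knockdown without treatment (log2 fold change -1.92 ± 0.37, edgeR adjusted p = 0.000612) and at 4.30, 3.14, 2.98 and 2.77 CPM in control cells and 1.54, 0.324, 0.649 and 1.35 CPM with the knockdown under AngII (-1.76 ± 0.37). Usp18 was at 3.86, 3.41, 2.74 and 3.12 CPM in control cells and 0.747, 0.389, 0.381 and 0.902 CPM with the knockdown (-2.42 ± 0.39, adjusted p = 0.000114), and under AngII its change was -1.24 ± 0.37. Both genes were lower in all 4 knockdown libraries than in any untreated control library. Under AngII the Usp18 libraries overlapped, and the first knockdown library stood at 2.11 CPM.

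Of the 4 IFIT genes, 1 fell with the knockdown, Ifit1. It was at 8.53, 6.61, 6.63 and 5.55 CPM in control cells and 1.26, 1.95, 1.09 and 2.23 CPM with the knockdown without treatment (log2 fold change -2.06 ± 0.34, edgeR adjusted p = 0.000173) and had a change of -1.09 ± 0.33 under AngII (adjusted p = 0.0185). Ifit3 was at 24.1, 22.8, 20.3 and 29.5 CPM in control cells and 18.9, 18.8, 21.1 and 29.4 CPM with the knockdown, with overlapping groups and a log2 fold change of -0.13 ± 0.17 (adjusted p = 0.599). Ifit3b (-0.09 ± 0.23) and Ifit2 (-0.21 ± 0.16) were not called either. Under AngII the same 3 genes stood at -0.0045, 0.12 and -0.13, none called.

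Of the sensors all 4 fell in untreated cells. Ddx58 was at 62.3, 57.8, 54.1 and 60.3 CPM in control cells and 29.8, 27.5, 27.3 and 32.2 CPM with the knockdown (log2 fold change -1.01 ± 0.08, edgeR adjusted p = 1.3e-08), with no overlap. Ifih1 and Dhx58 had changes of -0.93 ± 0.11 and -1.11 ± 0.30, and Zbp1, at 0.840, 0.920, 0.199 and 0.237 CPM in control cells and 0.140, 0, 0.109 and 0 CPM with the knockdown, of -2.94 ± 0.92. Of the factors, Stat2 was at 72.1, 69.8, 74.7 and 68.6 CPM in control cells and 44.1, 40.3, 43.7 and 49.3 CPM with the knockdown (-0.68 ± 0.08, adjusted p = 4.2e-06) and Irf7 at 8.32, 9.26, 8.28 and 4.13 CPM in control cells and 2.62, 3.73, 4.78 and 3.08 CPM with the knockdown (-1.07 ± 0.30, adjusted p = 0.0123). Irf7 overlapped between the groups, its lowest control library being the fourth. Irf9 (-0.41 ± 0.15, adjusted p = 0.0482) and Irf1 (-0.26 ± 0.09, adjusted p = 0.0332) fell least of the called factors. Under AngII Irf7 (-0.31 ± 0.30, adjusted p = 0.487) and the sensor Dhx58 (-0.74 ± 0.30, adjusted p = 0.0721) were not called. These calls are near the threshold: Irf9 and Irf1 lost them in 7 and 4 of the 15 alternative settings. For Irf9 these were no filter on low counts and leaving out untreated control library 1 or 2 or 3 or untreated knockdown library 2 or 3 or 4, and for Irf1 leaving out untreated control library 2 or 3 or untreated knockdown library 1 or 4, with adjusted p up to 0.111 and 0.0806. Zbp1 lost its call without untreated control library 1 or 2 or untreated knockdown library 2 (adjusted p up to 0.0683).

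Of the GTPases, Irgm1 was at 199.7, 184, 171 and 210.0 CPM in control cells and 80.9, 65.8, 71.8 and 138 CPM with the knockdown (log2 fold change -1.10 ± 0.21, edgeR adjusted p = 0.000844), the fourth knockdown library, of batch P19, being the highest of its group. Ifi47 was at 9.53, 10.3, 8.98 and 7.01 CPM in control cells and 3.32, 2.17, 1.96 and 2.71 CPM with the knockdown (-1.81 ± 0.19, adjusted p = 8.67e-07) and Gbp3 at 1.55, 1.84, 1.40 and 0.948 CPM in control cells and 0.327, 0.223, 0.489 and 0.637 CPM with the knockdown (-1.75 ± 0.44). Gbp2 was at 8.44, 10.4, 8.38 and 6.53 CPM in control cells and 6.40, 4.56, 5.55 and 5.57 CPM with the knockdown, with log2 fold changes of -0.61 ± 0.21 without treatment and -1.14 ± 0.22 under AngII. Gbp2 lost its call in untreated cells without untreated control library 1 or 2 or 3 or untreated knockdown library 2 or 3 (adjusted p up to 0.123). All 5 immunity-related GTPases fell in untreated cells, with changes between -1.81 and -0.98. Gbp7 (-0.42 ± 0.32) and Mx1 (-0.72 ± 0.47) were not called, while Mx2 fell (-1.17 ± 0.29). Under AngII 3 of the 5 immunity-related GTPases fell, and Igtp (-0.66 ± 0.26, adjusted p = 0.0663) and Iigp1 (-0.53 ± 0.35, adjusted p = 0.287) were not called. Neither MX gene was called there, with Mx2 at -0.46 ± 0.29 (adjusted p = 0.251) and Mx1 at -1.28 ± 0.50 (adjusted p = 0.0666), nor was Gbp7 (-0.38 ± 0.32).

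Among the other effectors, Bst2 was at 18.5, 30.2, 26.6 and 24.8 CPM in control cells and 8.59, 6.90, 8.64 and 12.9 CPM with the knockdown (log2 fold change -1.43 ± 0.18, edgeR adjusted p = 1.12e-05) and at 34.6, 27.5, 27.6 and 24.1 CPM in control cells and 11.8, 8.90, 9.43 and 12.9 CPM with the knockdown under AngII (-1.40 ± 0.18). Rtp4, a chaperone of receptors, was at 4.91, 4.17, 3.14 and 2.34 CPM in control cells and 1.26, 1.06, 0.815 and 0.955 CPM with the knockdown (-1.82 ± 0.35, adjusted p = 0.000652). No library of Bst2 or Rtp4 overlapped between the groups in either condition. Eif2ak2 fell less, from 67.6, 67.1, 68.5 and 72.9 CPM to 55.5, 49.6, 52.5 and 61.6 CPM (-0.33 ± 0.07, adjusted p = 0.00102), also without overlap. Cmpk2 and Ifi44, both near or under 1 CPM, were not called without treatment (-2.15 ± 0.94 and -1.54 ± 0.62) or under AngII (-0.93 ± 0.80 and -0.91 ± 0.58).

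Within batches P16, P17, P18 and P19, 35, 34, 34 and 33 of 35 genes were lower with the knockdown in untreated cells, with median log2 ratios of -1.09, -1.24, -0.92 and -0.74. Under AngII 33, 34, 33 and 29 were lower. 31 genes were lower in all 4 batches without treatment and 28 under AngII. Leukocyte markers, of which Ptprc, Adgre1, Cd52 and Tyrobp had no count in run 3, summed to 10.7 to 14.9 CPM in untreated control and 12.2 to 15.0 CPM in knockdown cells. Fibroblast-type markers differed, at 434 to 659.9 and 206 to 267 CPM in sum. Of the 5 tested, Ly6a (-1.95 ± 0.54), Pi16 (-1.83 ± 0.24) and Col14a1 (-1.19 ± 0.25) fell and Lum (2.06 ± 0.53) and Pdgfra (1.66 ± 0.53) rose. Of the plasmacytoid dendritic cell markers Tcf4 rose (0.53 ± 0.10) and Spib was not called (-1.66 ± 0.70, edgeR adjusted p = 0.09). The part of these markers in the result was not tested. Under AngII Usp18 and Ifit1 lost their calls without AngII-treated control library 1 or AngII-treated knockdown library 2 or 3, Irf9 without AngII-treated control library 1 or 2 or 3 or AngII-treated knockdown library 2 or 3 or 4, Irf1 without AngII-treated control library 1 or 3 or AngII-treated knockdown library 3 or 4 and Gbp3 without AngII-treated control library 1 or AngII-treated knockdown library 2 (adjusted p up to 0.124 for Irf9 and 0.0796 for Gbp3). Leaving out any 1 library left between 24 and 29 genes called lower without treatment and between 18 and 26 under AngII.

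**Figure D3:**
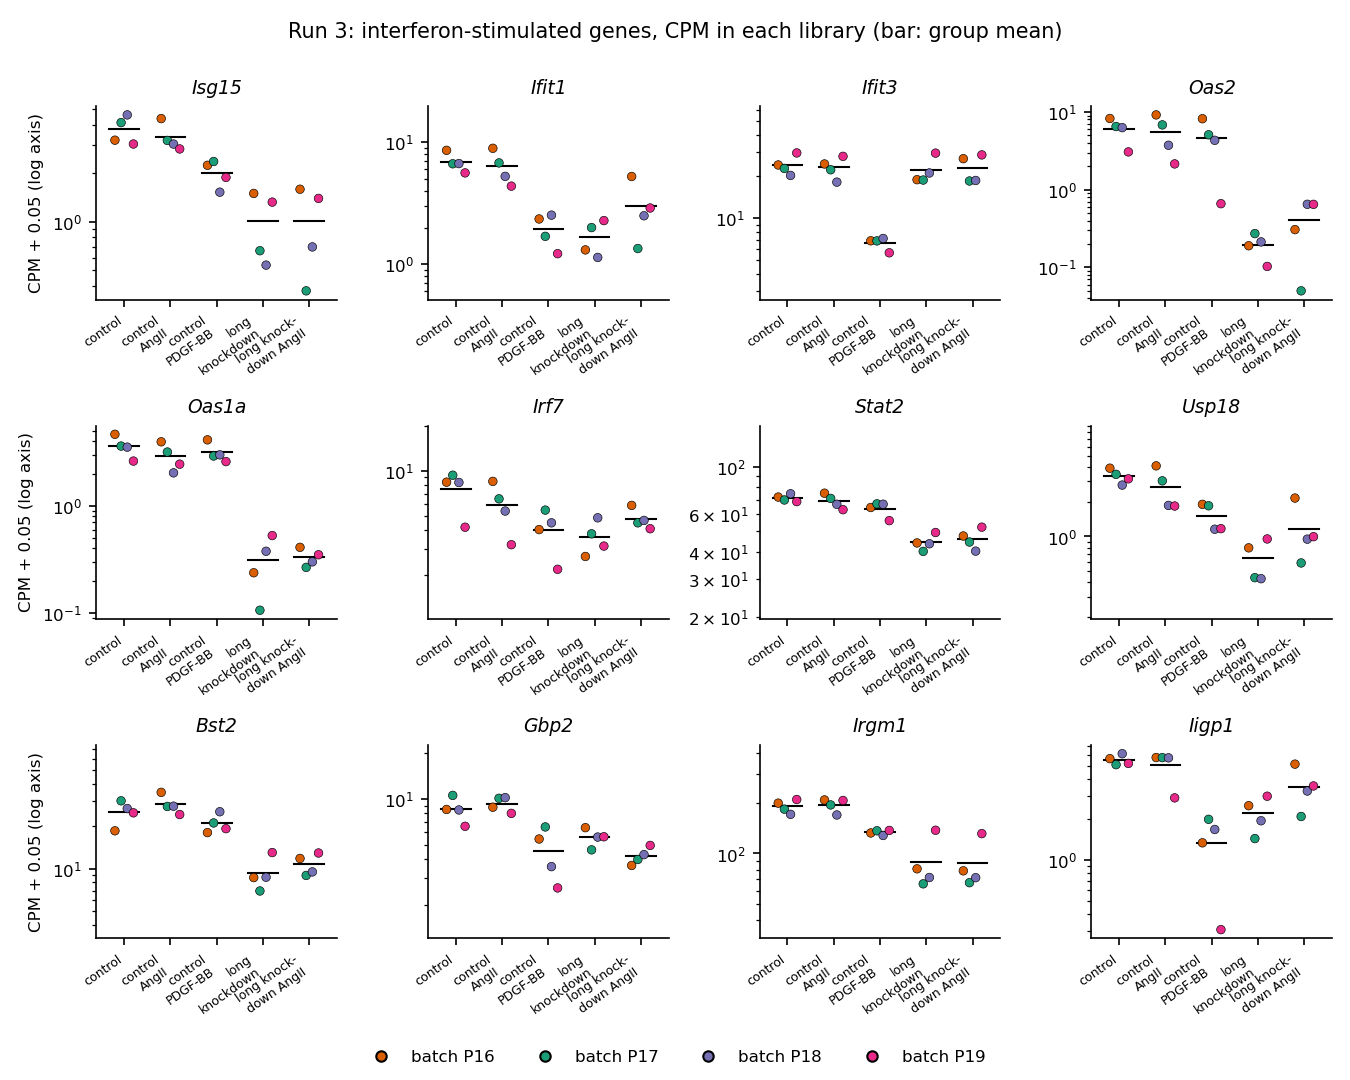
CPM (plus 0.05, log axis) of 12 genes in each library of run 3, by group on the x axis, with points coloured by batch and a bar at the group mean. Oas2 is at 3.01 to 8.19 CPM in untreated control cells and at most 0.223 CPM in untreated knockdown cells; Ifit3 with PDGF-BB is at 5.60 to 7.11 CPM.

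AngII, the vasoconstrictor peptide of the renin-angiotensin system, was compared with no treatment in control and in knockdown cells. No gene of the 35 tested passed the test in control cells, where 0% of all genes were called, nor in knockdown cells (0% of all genes), nor did the interaction of knockdown and AngII (0% of all genes). By edgeR, 0, 2 and 1 of the 35 had an unadjusted p under 0.05, beside 1.03%, 1.15% and 1.10% of all genes. DESeq2 called 0, 0 and 0 higher and as many lower. In knockdown cells 6 of the 35, Cmpk2, Gbp3, Ifi44, Oas1a, Oas2 and Zbp1, had too few counts to pass the filter on those libraries alone, so the test could say little about them. The median log2 fold changes were -0.06 in control and 0.09 in knockdown cells. Oas2 stood at 8.19, 6.44, 6.23 and 3.01 CPM untreated and 9.11, 6.77, 3.68 and 2.10 CPM with AngII in control cells, with overlapping libraries. Iigp1, an IRG effector, was at 5.59, 5.04, 6.08 and 5.15 CPM untreated and at 5.70, 5.69, 5.66 and 2.84 CPM with AngII. In knockdown cells Usp18 was at 0.747, 0.389, 0.381 and 0.902 CPM untreated and 2.11, 0.540, 0.898 and 0.947 CPM with AngII (log2 fold change 0.88 ± 0.41, edgeR adjusted p = 1). A p that misses the threshold does not show that the levels were equal.

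Control cells given PDGF-BB, a growth factor that drives smooth muscle cells to divide, were set against untreated control cells. Of 35 genes tested 32 had a log2 fold change below 0. By edgeR 19 fell, where 20.0% of all genes fell, and 0 rose, where 23.6% of all genes rose. The groups did not overlap, with PDGF-BB lower, in 17 of 35 genes, against 18% of all genes. The median log2 fold change was -0.72, a ratio of 0.608, beside -0.02 over all genes. With batch as a replicate block 22 fell and 2 rose, beside 26.2% and 28.3% of all genes. Those that rose were Mx1 (1.43, 1.73, 1.05 and 0.576 CPM untreated, 3.59, 2.16, 2.42 and 1.53 CPM with PDGF-BB, blocked edgeR adjusted p = 0.0423) and Eif2ak2 (blocked adjusted p = 0.0249).

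Of the 4 IFIT genes 3 fell. Ifit3 was at 24.1, 22.8, 20.3 and 29.5 CPM untreated and 6.84, 6.83, 7.11 and 5.60 CPM with PDGF-BB (log2 fold change -1.88 ± 0.18 SE, edgeR adjusted p = 9.77e-08). Ifit1 was at 8.53, 6.61, 6.63 and 5.55 CPM untreated and 2.30, 1.64, 2.48 and 1.17 CPM with PDGF-BB (-1.85 ± 0.34, adjusted p = 0.000189) and Ifit3b at 6.09, 6.44, 6.43 and 6.60 CPM untreated and 2.30, 3.03, 2.32 and 1.93 CPM with PDGF-BB (-1.41 ± 0.25, adjusted p = 0.000111). No library of these 3 genes overlapped between the groups. Ifit2, at 72.5, 68.7, 78.0 and 103 CPM untreated and 50.8, 56.4, 55.9 and 80.5 CPM with PDGF-BB, did not pass (-0.40 ± 0.16, adjusted p = 0.0518) but did with the block (adjusted p = 1.34e-06).

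Of the GTPases, Iigp1 was at 5.59, 5.04, 6.08 and 5.15 CPM untreated and 1.29, 1.95, 1.63 and 0.254 CPM with PDGF-BB (log2 fold change -2.09 ± 0.38, edgeR adjusted p = 0.000165), the lowest value being that of batch P19. Irgm2 was at 18.5, 15.5, 13.3 and 11.7 CPM untreated and 8.08, 6.88, 6.64 and 4.33 CPM with PDGF-BB (-1.19 ± 0.19, adjusted p = 4.69e-05) and Gbp7 at 5.21, 3.79, 3.74 and 2.64 CPM untreated and 2.30, 1.54, 1.79 and 0.560 CPM with PDGF-BB (-1.31 ± 0.33, adjusted p = 0.00315). In all 3 the groups stayed apart. Gbp2, Ifi47 and Igtp fell as well (log2 fold changes -0.91 ± 0.22, -0.94 ± 0.18 and -0.92 ± 0.26), and Irgm1 did not pass (-0.52 ± 0.21, adjusted p = 0.0516), although its groups did not overlap.

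Isg15 was at 3.15, 4.06, 4.54 and 2.98 CPM untreated and 2.19, 2.31, 1.48 and 1.83 CPM with PDGF-BB (log2 fold change -0.91 ± 0.34, edgeR adjusted p = 0.0382), Usp18 at 3.86, 3.41, 2.74 and 3.12 CPM untreated and 1.85, 1.80, 1.11 and 1.12 CPM with PDGF-BB (-1.16 ± 0.36, adjusted p = 0.0124) and Rtp4 at 4.91, 4.17, 3.14 and 2.34 CPM untreated and 2.08, 1.49, 1.58 and 0.713 CPM with PDGF-BB (-1.31 ± 0.34, adjusted p = 0.00369). Each was lower in every PDGF-BB library than in any untreated one. Of the sensors, Ddx58 (-0.32 ± 0.08) and Ifih1 (-0.52 ± 0.11) fell, and of the factors, Irf7 alone did (-0.90 ± 0.30, adjusted p = 0.019). Stat2 was at 72.1, 69.8, 74.7 and 68.6 CPM untreated and 64.4, 67.0, 66.7 and 56.0 CPM with PDGF-BB and was not called (adjusted p = 0.105) although its groups did not overlap, nor was Irf9 (-0.33 ± 0.15, adjusted p = 0.0752). Of the other effectors Parp14, which adds ADP-ribose to proteins, and Xaf1, a pro-apoptotic factor, fell (-0.72 ± 0.19 and -0.86 ± 0.23), and Bst2 was not called (-0.26 ± 0.18). Isg15 lost its call without PDGF-BB-treated control library 3 or 4 or untreated control library 2 or 3 (adjusted p up to 0.109) and Irf7 without PDGF-BB-treated control library 4 or untreated control library 2 (up to 0.0587).

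The OAS and MX genes gave other values. Oas1a was at 4.62, 3.57, 3.49 and 2.57 CPM untreated and 4.09, 2.88, 2.95 and 2.54 CPM with PDGF-BB (log2 fold change -0.19 ± 0.29, edgeR adjusted p = 0.616) and Oas2 at 8.19, 6.44, 6.23 and 3.01 CPM untreated and 8.13, 5.03, 4.27 and 0.611 CPM with PDGF-BB (-0.40 ± 0.56, adjusted p = 0.588). In both genes the groups overlapped, and the fourth PDGF-BB library of Oas2 was the lowest. Oasl2 fell (-1.07 ± 0.31), as did Mx2 (-0.74 ± 0.28, adjusted p = 0.04), but not without PDGF-BB-treated control library 1 or 4 or untreated control library 2 or 3 (up to 0.163), and Mx1 had a log2 fold change of 1.03 ± 0.44 that did not pass without the block (adjusted p = 0.0619). Within batches P16, P17, P18 and P19, 31, 31, 31 and 32 of 35 genes were lower with PDGF-BB. The leukocyte markers summed to 11.5 to 13.7 CPM with PDGF-BB, beside 10.7 to 14.9 CPM untreated, and the smooth muscle markers to 198 to 222 and 242 to 276 CPM. The fibroblast-type markers summed to 361 to 537 CPM with PDGF-BB and 434 to 659.9 CPM untreated. Of the 5 tested, Lum (-2.37 ± 0.71), Pdgfra (-2.27 ± 0.61) and Col14a1 (-1.26 ± 0.25) fell and Pi16 rose (0.57 ± 0.22). Of the plasmacytoid dendritic cell markers Tcf4 fell (-0.49 ± 0.10). The part of these markers in the result was not tested.

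Long knockdown and PDGF-BB were each read against the same 4 untreated control libraries, so their values are given side by side. The difference of the 2 effects was tested as the direct contrast of untreated knockdown cells with PDGF-BB-treated control cells, in which the shared controls cancel. This contrast was chosen after the data were seen. It called 19 of 35 genes (edgeR), where 59.1% of all genes were called: 16 were lower with the knockdown, beside 30.1% of all genes, and 3 were lower with PDGF-BB, beside 29.0%. Taken over both directions together, the share called is close to that of all genes. By direction, the share lower with the knockdown is above that of all genes, and the share lower with PDGF-BB is below it. Of those lower with the knockdown, Cmpk2 and Zbp1 had too few counts to pass the filter on these 8 libraries alone.

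The 3 genes lower with PDGF-BB were Ifit3, with log2 fold changes of -0.13 for the knockdown and -1.88 for PDGF-BB (difference 1.74 ± 0.18, edgeR adjusted p = 1.19e-07), Ifit3b (difference 1.33 ± 0.25, adjusted p = 0.000128) and Gbp7 (0.90 ± 0.34, adjusted p = 0.0274), which lost the call without PDGF-BB-treated control library 2 or 4 or untreated knockdown library 1 or 3. On the other side, Oas2 had -5.31 for the knockdown and -0.40 for PDGF-BB (difference -4.91 ± 0.84, adjusted p = 7.07e-05), and Oas1a -3.74 and -0.19 (difference -3.54 ± 0.37, adjusted p = 1.05e-07). Bst2 (-1.17 ± 0.18), Usp18 (-1.26 ± 0.40), Isg15 (-1.01 ± 0.37) and Stat2 (-0.52 ± 0.08) were also lower with the knockdown, Isg15 not without PDGF-BB-treated control library 1 or 2 or untreated knockdown library 2 or 3 (adjusted p up to 0.0918). Ifit1, on the same chromosome as Ifit3, fell with both (log2 fold changes -2.06 and -1.85), and the difference of -0.22 ± 0.36 did not pass (adjusted p = 0.627). Irgm2, Igtp, Xaf1 and Parp14 likewise had differences within 0.14 log2 units, which does not show that the effects were equal.

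**Figure D4:**
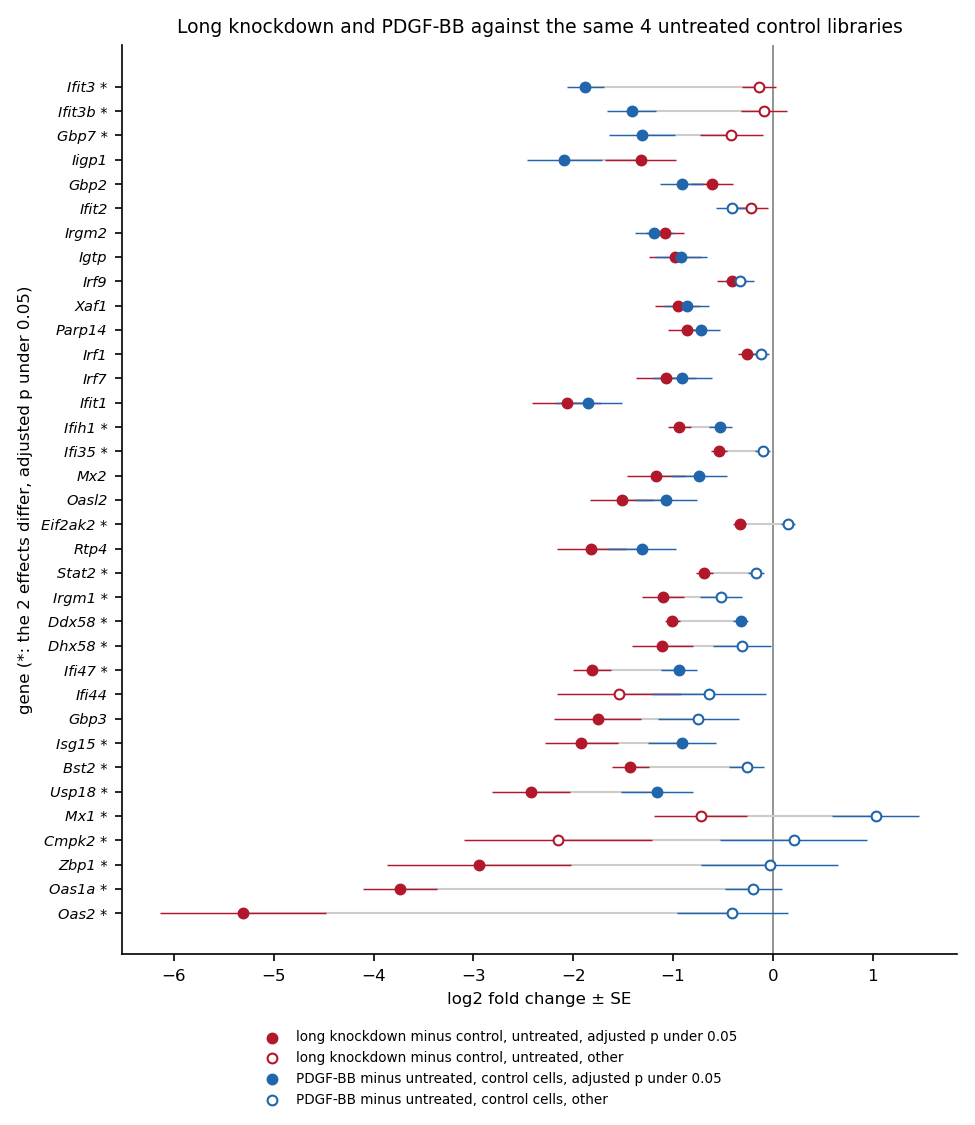
log2 fold change ± SE of the 35 tested genes for the long knockdown (red) and PDGF-BB (blue), both against the same untreated control libraries; filled points have an adjusted p under 0.05, and a star marks genes whose 2 effects differ. Ifit3 and Ifit3b lie low for PDGF-BB alone, at -1.88 and -1.41, and Oas2 and Oas1a for the knockdown alone, at -5.31 and -3.74.

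Upstream genes of run 3 are given for comparison with the 35. Of 9 receptors and kinases 3 fell and 1 rose with the knockdown, where 12.8% of all genes fell and 12.3% rose. With PDGF-BB 1 fell and 3 rose, where 20.0% of all genes fell and 23.6% rose. Ifnar1 was not called in either (-0.12 ± 0.05 and -0.0032 ± 0.05), and Ifnar2 fell slightly in both (-0.24 ± 0.08 and -0.19 ± 0.08). None of the 16 interferon genes had enough counts to be tested in run 3. Of 18 tested genes of nucleic acid sensing 4 fell with the knockdown, among them Sting1, the adaptor below cGAS, at 16.7, 15.4, 17.3 and 9.89 CPM in control and 5.74, 5.45, 6.36 and 7.32 CPM in knockdown cells (-1.25 ± 0.21, edgeR adjusted p = 0.000208), and 2 rose. With PDGF-BB 3 of 18 fell and 5 rose, close to the shares of all genes. Among those that rose was Cgas, at 1.01, 0.920, 1.25 and 0.846 CPM untreated and 2.86, 3.13, 2.27 and 4.22 CPM with PDGF-BB (1.63 ± 0.29, adjusted p = 0.000124). Irf3 was not called in either (0.09 ± 0.11 and 0.05 ± 0.11).

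Of 5 feedback regulators 2 fell and 1 rose with the knockdown, beside the same 12.8% and 12.3% of all genes: Socs1, an inhibitor of the receptor kinases, rose (1.39 ± 0.44, edgeR adjusted p = 0.0247), while the phosphatase Ptpn2 (-0.82 ± 0.07) and Socs3 (-0.68 ± 0.18) fell. Socs1 was at 0.336, 0.487, 0.549 and 0.474 CPM in untreated control cells and 1.45, 1.84, 1.14 and 0.425 CPM with the knockdown, with overlapping groups. It was not called under AngII (0.21 ± 0.44). Of 55 tested further interferon-stimulated genes 31 fell and 0 rose with the knockdown in untreated cells, 29 fell and 2 rose under AngII, and 23 fell and 4 rose with PDGF-BB, with medians of -0.49, -0.46 and -0.33. Under AngII 13.3% of all genes fell and 13.4% rose. Oas1g, the near copy of Oas1a, had the widest fall with the knockdown (-5.13 ± 0.95), followed by Slfn2 (-3.66 ± 0.42). The levels of Oas1g were low, at 0.339 to 0.966 CPM in untreated control cells and 0 to 0.0531 CPM with the knockdown. With PDGF-BB Slfn9 rose (2.75 ± 0.20) and the membrane protein Ifitm1 fell (-2.72 ± 0.80). Ifitm1 too was low, at 0.237 to 0.866 CPM untreated and 0 to 0.204 CPM with PDGF-BB.

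The tested genes were summed up per library by the mean of their log2 CPM. In run 2 it was 0.77 and 1.05 with the control GapmeR, 1.37 and 1.62 in the labelled total knockdown, 6.32, 7.49 and 7.73 in the plasmid control and 7.59, 8.09 and 7.98 with overexpression. In run 3 it was 3.36, 3.27, 3.21 and 2.86 in untreated control cells, 3.49, 3.21, 3.04 and 2.73 with AngII, 2.76, 2.65, 2.48 and 1.96 with PDGF-BB, 1.99, 1.70, 1.90 and 1.98 in untreated knockdown cells and 2.29, 1.72, 2.05 and 2.10 in knockdown cells with AngII. The fourth library, of batch P19, was the lowest in each of the 3 control groups of run 3. Outside the list, genes among the 5 most like this mean across the 10 libraries of run 2 were Lgals3bp, Phf11d, Parp9 and Gbp6, with Pearson correlations of 0.998 to 0.999. Across the 20 libraries of run 3 the 5 most like it were Parp9, Tgtp1, Oas1g, Dtx3l and C1ra, with 0.957 to 0.968. Libraries of a group share its treatment, and no p is given.

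**Figure D5:**
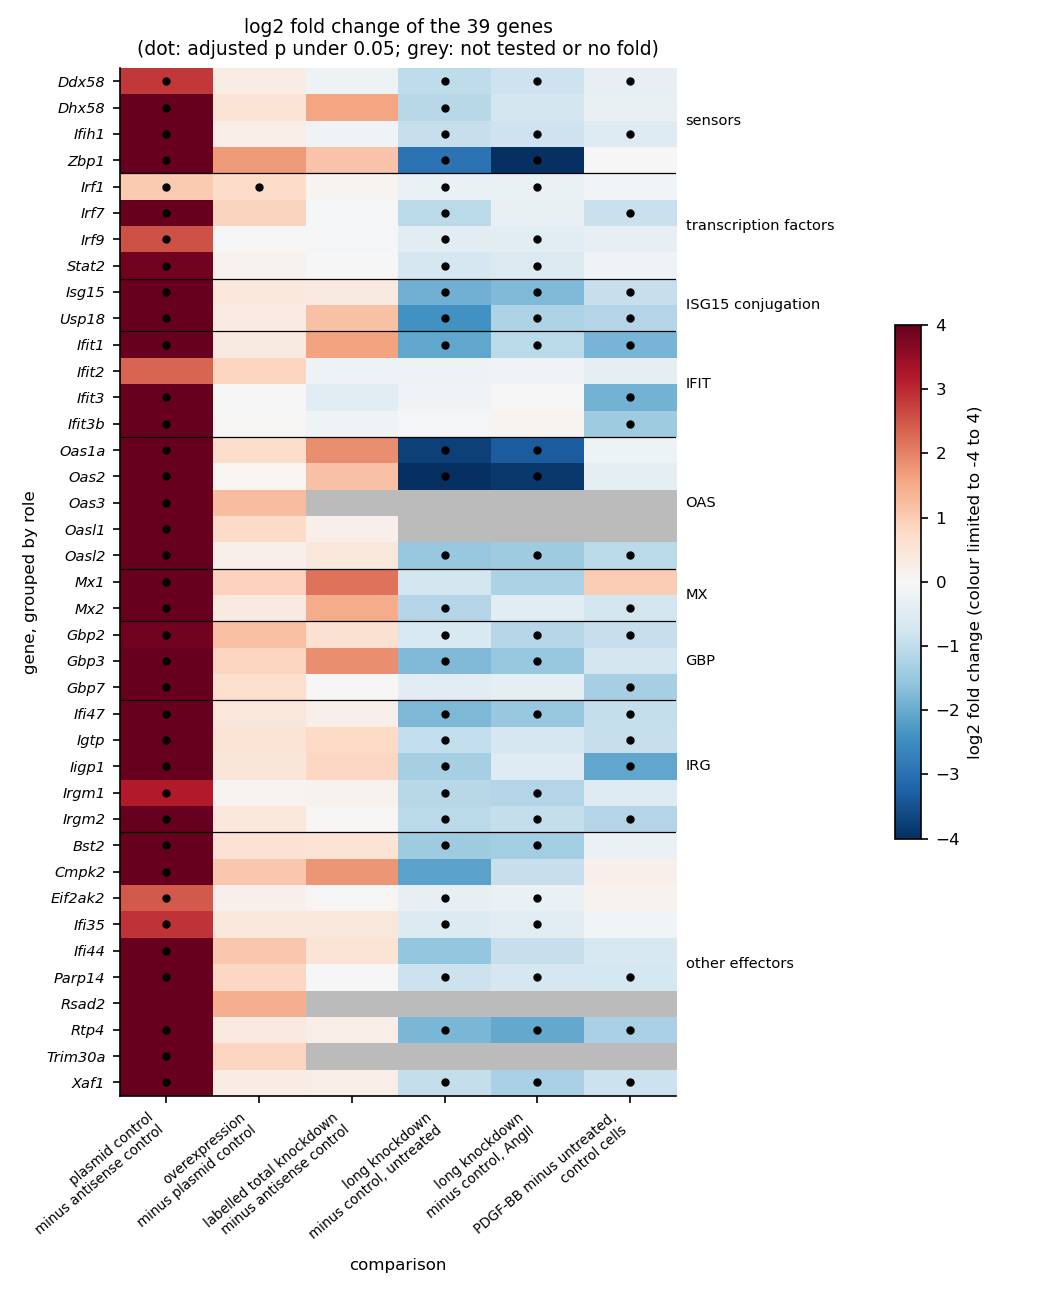
log2 fold change of the 39 genes, grouped by role, in 6 comparisons; colour is limited to -4 to 4, dots mark an adjusted p under 0.05, and grey marks genes not tested or with both groups at the floor of 3 counts. Genes with no count in the control GapmeR are drawn at their lower bound. The first column is high throughout, and the long knockdown columns are below 0 for every tested gene but Ifit3b under AngII.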

How the data were processed

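The authors deposited 1 table of RSEM expected counts per gene for all libraries; the submitters' processing notes name STAR 2.7.11b, RSEM 1.3.1 and the builds GRCm39 and mm10, without saying which step used which. Annotation, strandedness and filters are not given in the sources used here. In successive batches the labels number the target CASC16 to CASC22, which was read as CASC15. Expected counts were rounded, and symbols came from GENCODE M21 and RefSeq tables. Each run was fitted with edgeR 4.0.16 (R 4.3.3): genes kept by filterByExpr (minimum count 10, minimum total 15; 15350 genes in run 2 and 15103 in run 3), TMM scaling, 1 coefficient per group, the quasi-likelihood F test and Benjamini-Hochberg adjustment over all genes tested, with calls at an adjusted p under 0.05. The same filter was also applied to the libraries of each comparison alone, to find genes kept through other groups. CPM are scaled by TMM.

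The genes and lists were chosen with earlier results of these data known. Per-library values are given for up to 8 called, non-overlapping genes with the largest fold changes and at least 1 CPM, and for Isg15, Ifit1, Irf7, Stat2, Irf9, Usp18, Bst2, Gbp2, Irgm1 and Irf1. Results of 1 gene of the pathway list are not reported here. The pairing of libraries by batch comes from the labels. Deviations from group means correlated at a mean of 0.21 between groups of the same batch in run 2 (-0.11 otherwise) and 0.18 in run 3 (-0.05 otherwise).

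On simulated counts with 2-fold changes, 65.3% of changed genes were recovered for the untreated long knockdown (run 3), 33.7% for plasmid against GapmeR control, 41.3% for overexpression and 22.7% for the labelled total knockdown. Floors of 3 counts and counting intervals (exact binomial, 95%) cover counting error only. Alternatives were DESeq2 1.42.0, its size factors in edgeR, no filter, a mean of at least 1 CPM, only the groups compared in the fit, batch as a block, and leaving out single libraries; leaving out batch P19 and the direct contrast of knockdown with PDGF-BB were added after seeing the data.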

Additional observations from a re-analysis of the deposited data

Results flagged for a closer look

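Among 175 sets of 4 libraries of 1 gene in run 3, 9 held a library far from the other 3, by Dixon's criterion at 95%; chance alone flags about 1 set in 20. In 4 of them this was a low library of batch P19. Dhx58 was at 3.05 CPM there in untreated control cells, with the others at 5.52 to 5.78 CPM. Iigp1 was at 2.84 CPM there in AngII-treated control cells, with the others at 5.66 to 5.70 CPM. Oasl2 was at 7.08 CPM there in untreated control cells, with the others at 15.0 to 15.3 CPM. Oasl2 was at 3.24 CPM there in untreated knockdown cells, with the others at 4.95 to 5.09 CPM. Ddx58 in AngII-treated knockdown cells had its lowest value, 28.0 CPM, in batch P16, with the others at 31.8 to 32.2 CPM. Dhx58 in AngII-treated knockdown cells had its highest value, 4.005 CPM, in batch P16, with the others at 2.44 to 2.698 CPM. Ifi35 in AngII-treated knockdown cells had its lowest value, 17.9 CPM, in batch P18, with the others at 20.8 to 21.4 CPM. Ifit3b in untreated knockdown cells had its highest value, 9.76 CPM, in batch P19, with the others at 4.56 to 5.16 CPM. Igtp in AngII-treated knockdown cells had its lowest value, 2.60 CPM, in batch P18, with the others at 3.23 to 3.35 CPM.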

How the results depend on the processing

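Over all alternatives run, the genes called higher in the plasmid control numbered 28 to 39; those called lower with the long knockdown numbered 24 to 33 untreated and 18 to 29 under AngII, and with PDGF-BB 17 to 22. No called gene changed direction under any alternative in which it was tested. For overexpression, the count of the 39 genes called higher moved from 1 to 2 with DESeq2, 20 with no filter, 12 with the replicate block, 0 with the compared groups alone, 2 without batch P19 and 0 to 4 leaving out 1 library; for the labelled total knockdown it moved from 0 to 4, 8, 3 and 3 in the first 4 of these settings. With PDGF-BB, 1 gene was called higher with DESeq2, 2 with the block, 1 with the compared groups alone, 1 without P19 and 0 to 1 leaving out 1 library.

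Calls over all genes moved more. For overexpression they were 253, and 807 with DESeq2, 1363 unfiltered, 2721 with the block, 66 with the compared groups alone, 844 without P19 and 86 to 867 leaving out 1 library. For the plasmid control they were 181, and 347, 1106, 459 and 101 in the first 4 of these settings and 67 to 277 leaving out 1 library. For the labelled total knockdown they were 317, and 719, 1325, 2209, 1079, 1041, 190 with a mean of at least 1 CPM, and 4 to 188 leaving out 1 library, where a lone sample is assumed to vary like the other groups. For the long knockdown they were 3783 untreated, 6126 with the block and 6062 without P19, and 4033 under AngII, 6238 with the block. For AngII in control cells and for the interaction, 1 gene was called with DESeq2 and 1 with the compared groups alone. The cause of these moves was not tested. With the block 34 of the genes were called higher in the plasmid control, and 31, 26 and 22 lower with the knockdown untreated, under AngII and with PDGF-BB; it changed no other count by over 1.5 times.

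Depth limits the genes near 0: Oas3, Oasl1, Rsad2 and Trim30a had too few counts for a test in run 3, and folds of Zbp1, Oas3, Rsad2 and Trim30a in run 2 are lower bounds. The control GapmeR group holds 2 libraries.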
